A study of Homo sapiens with 6 samples.

Results

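The genes described here are the 5S ribosomal RNA genes and pseudogenes whose signal lay above background on arrays of HaCaT, a human keratinocyte line that became immortal spontaneously in culture. A transcript cluster, the array's unit for a gene, was taken where its only symbol starts with RNA5S and its mean over the 6 arrays lay above 6.01 on the log2 scale, the level of the brightest of 23 sets of background control probes. This kept 122 of 493 measured RNA5S symbols, or 24.7%, against 42.0% of the other genes with a single symbol. Of the 122, 121 are listed as pseudogenes (RNA5SP), and RNA5S9 is listed as a 5S gene. Just inside the limit were RNA5SP425, RNA5SP139 and RNA5SP55, with means of 6.02, 6.02 and 6.01. Just outside it were RNA5SP374, RNA5SP388 and RNA5SP497, with means of 5.99, 5.99 and 5.98. The members were chosen by the mean signal over all 6 arrays, so their brightness is given only as a description.

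The 6 arrays comprised 3 mock-irradiated HaCaT cultures (0 Gy) and 3 cultures given one 20 Gy X-ray exposure at 1.15 Gy per min, with total RNA collected after 48 h. All cultures were of the same unmodified line, grown in high-glucose DMEM with serum, and no other agent is named. The cultures are labelled as biological replicates, numbered 1 to 3 in each group, and p-values measure only the spread between these cultures. The study addressed the mRNA and lncRNA response to irradiation, and the 5S transcripts were measured on the same arrays.

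5S rRNA is a short RNA of the large ribosomal subunit and is made by RNA polymerase III from a promoter inside the gene, to which TFIIIA binds first. Before it joins the ribosome it forms a particle with the ribosomal proteins RPL5 and RPL11, and this particle can also bind MDM2, the ubiquitin ligase that restrains p53. The human genome carries a tandem array of 5S genes and many scattered pseudogene copies, some of which are transcribed. One of them, RNA5SP141, was reported to bind the RNA sensor RIG-I in virus-infected human cells.

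The arrays had gene-level medians from 4.53 to 4.66 and correlated with each other at 0.977 to 0.993, and their number limits the precision of every value. Of the 5 measured keratinocyte markers, 5 lay above background. Of the markers of other cell types, 0 of 6 fibroblast genes, 1 of 5 melanocyte genes (MITF), 0 of 6 endothelial genes and 1 of 5 leukocyte genes (CD68) did. CD68 rose by 0.44 and the keratinocyte genes DSP and PKP1 fell by 0.42 and 0.55 in the paired limma fit described below (adjusted p = 0.033, 0.035 and 0.029), and their part in the 5S values was not tested. In these bulk samples fewer cells with a transcript and less of it per cell cannot be told apart.

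The brightest member was RNA5SP149, with 14.49, 15.56 and 16.08 in mock replicates 1, 2 and 3 and 13.28, 15.79 and 16.52 in irradiated replicates 1, 2 and 3. RNA5SP243 read 14.19, 15.47 and 16.12 in the mock cultures and 11.87, 14.79 and 16.32 in the irradiated ones. In both pseudogenes replicate 1 was low and replicate 3 high in each group, and the groups overlapped. The difference of irradiated minus mock for RNA5SP149 was -0.18 with a standard error (SE) of 0.30 (limma adjusted p = 0.719, paired by replicate number). For RNA5SP243 it was -0.93 with an SE of 0.42 (adjusted p = 0.196). Neither passed the threshold of 0.05.

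RNA5S9, the one member listed as a 5S gene, read 12.67, 13.42 and 14.12 in the mock cultures and 11.90, 13.12 and 14.26 in the irradiated ones, a difference of -0.31 (SE 0.16, adjusted p = 0.254). The other bright members were RNA5SP150, RNA5SP202 and RNA5SP199, with means over the arrays of 12.54, 12.13 and 11.83. Their differences were -0.25, -0.15 and -0.51, with adjusted p of 0.404, 0.623 and 0.233. All 6 of the brightest members had a lower irradiated value in replicate 1 and a higher one in replicate 3.

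The array also holds 16 clusters that each list 16 symbols of the 5S genes and carry identical values, which were counted as 1 measurement and do not belong to the 122. They read 14.59, 15.59 and 16.10 in the mock cultures and 13.65, 15.48 and 16.36 in the irradiated ones. The mock mean was 15.43 ± 0.77 and the irradiated mean 15.17 ± 1.38 (SD, n = 3 each). The difference of -0.26 did not pass the threshold over all clusters (limma adjusted p = 0.959). Their lowest array was irradiated replicate 1 and their highest irradiated replicate 3, as in the brightest members.

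**Figure D1:**
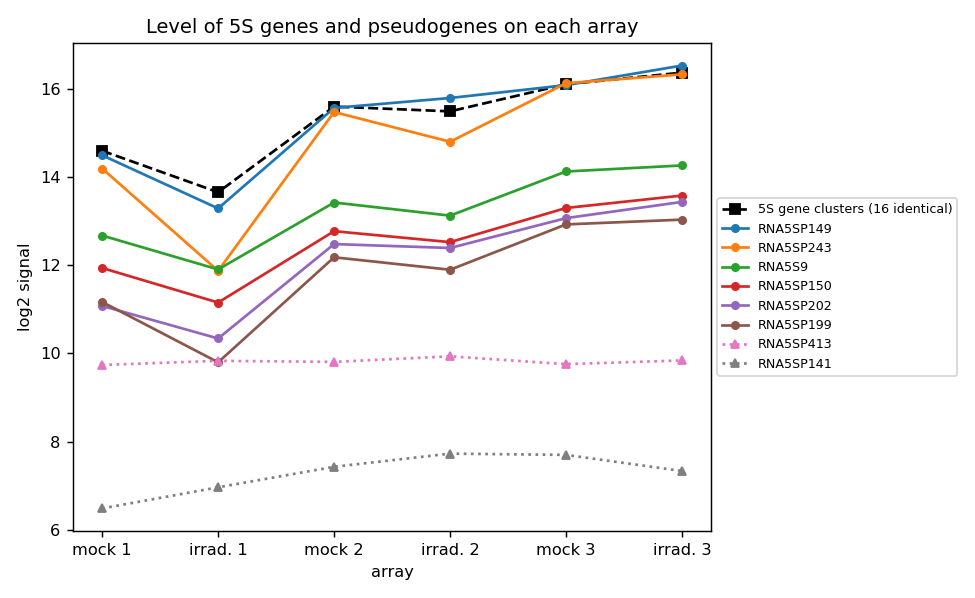
Log2 signal on each of the 6 arrays (x axis) of the 6 brightest members, RNA5SP413, RNA5SP141 and the 16 identical 5S gene clusters, with lines joining the arrays of one transcript. The 6 brightest members and the 5S gene clusters are lowest on irradiated replicate 1 and highest on irradiated replicate 3, RNA5SP413 stays between 9.74 and 9.93, and RNA5SP141 lies between 6.49 and 7.73.

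Across the 122 genes the replicate number accounted for most of the variation. Its median share of a gene's variation over the 6 arrays was 85.3%, against 4.87% for irradiation. In the other genes above background these shares were 79.3% and 9.31%. The replicate number has more degrees of freedom than irradiation, so its expected share is larger also where neither has an effect. The lowest array was one of the replicate 1 cultures for 101 of the 122 (mock for 52, irradiated for 49), or 82.8%, against 29.4% of the other genes. Irradiated replicate 3 was the highest array for 80, or 65.6%, against 7.87% of the other genes. Both replicate 3 arrays lay above both replicate 1 arrays for 100 of the 122, or 82.0%, against 29.4% of the other genes.

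This was tested with the replicate 3 against replicate 1 term of the paired limma fit over the 9317 genes above background, a comparison chosen after seeing the data. The signal was higher in replicate 3 for 96 of the 122 (adjusted p under 0.05), where 19.2% of all genes above background were called higher and 22.3% lower. In the same test 7 of the 122 had a lower estimate in replicate 3, and 0 of these passed the threshold, also at an unadjusted p under 0.05. The count was 98 under each of 3 other scalings of the arrays and ran from 82 to 99 when any single array was left out. RNA5SP243 was 3.19 higher in replicate 3 on the log2 scale, or 9.14-fold (adjusted p = 0.00381), and RNA5SP348 2.56 higher, or 5.90-fold (adjusted p = 0.00168). RNA5S9 was 1.90 higher, or 3.74-fold (adjusted p = 0.000821). The labels do not say what a replicate number shared besides the number, and the cause of the difference was not tested.

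The profile was clearest in the bright genes. For each gene the correlation with the 16 identical 5S gene clusters over the 6 arrays was taken as a description, since all points share the same arrays. Its median was 0.795 over the 122, 0.966 over the 41 brightest (means from 7.76 up), 0.739 over the next 41 and 0.528 over the 40 dimmest, and 0.00081 over the other genes above background. It exceeded 0.9 for 44 of the 122, or 36.1%, against 3.03% of the other genes. Members also resembled each other, with a median correlation between pairs of members of 0.696, and of 0.922 among the 41 brightest. Probe sequences were not used here, and how far probes of a pseudogene also bind 5S rRNA or other copies was not tested.

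**Figure D2:**
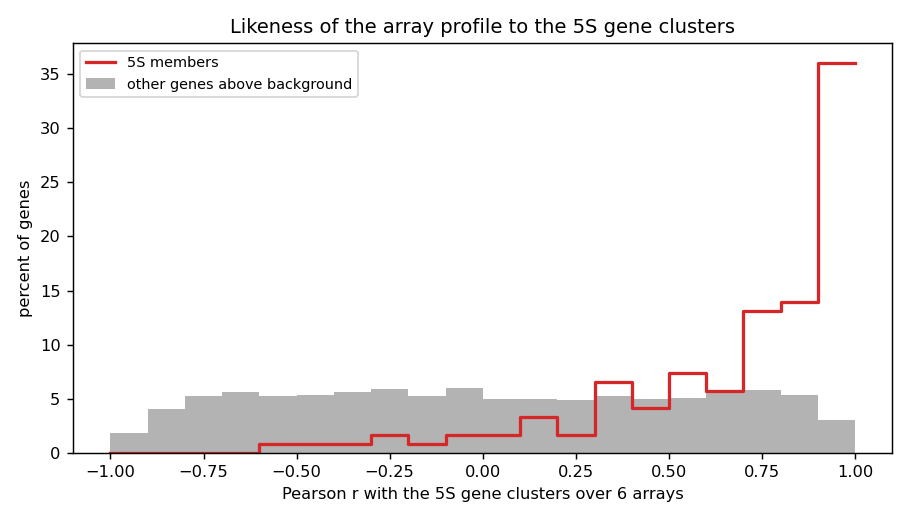
Percent of genes (y axis) by Pearson correlation with the 16 identical 5S gene clusters over the 6 arrays (x axis, bins of 0.1), for the 122 5S members (line) and the other genes above background (bars). The members' last bin, above 0.9, holds 36.1%, against 3.03% of the other genes.

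Not every member had this profile. RNA5SP413, on chromosome 16 within the non-coding gene LINC02167 in RefSeq's GRCh38.p14 table, read 9.74, 9.81 and 9.76 in the mock cultures and 9.83, 9.93 and 9.84 in the irradiated ones. Its range was the narrowest among the 41 brightest members, and its difference of 0.10 (SE 0.07) gave an adjusted p of 0.369, although its groups did not overlap. For 29 members the correlation with the 5S gene clusters was below 0.5. In these the replicate number had a median share of 43.0% of the variation, beside 23.1% for irradiation. Of the 16 members on chromosome 16, 8 were among these 29. Chromosome 16 carried more members than any other, 16 of its 28 measured RNA5S symbols, against 9 of 47 on chromosome 1 and 9 of 29 on chromosome 3.

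Irradiation was tested first over all 67528 transcript clusters without pairing. No cluster passed an adjusted p of 0.05 in limma, that is 0, or 0.0%, while 4822, or 7.14%, had an unadjusted p under 0.05, and adding the replicate number as a block also gave 0 calls. Of the 122 genes, 6 had an unadjusted p under 0.05 in the first fit and 24 in the blocked one, where 15.2% of all clusters had one. Their lowest adjusted p was 0.607 and 0.210. No member can therefore be called changed over the whole table.

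With that block and only the 9317 genes above background tested, 8 of the 122 rose and 1 fell, that is 6.56% and 0.820%. Over all genes above background 1.32% were called higher and 3.75% lower. The largest of these changes was 1.54-fold. Without the block, or without the signal limit, the count of members called was 0 in limma. Without the block 5 members had an unadjusted p under 0.05, against 3.33% of all genes above background. Without replicate 2 of both groups the count of members called was 2, and without mock replicate 2 or irradiated replicate 2 it was 3. Without any other single array it was 6 or 7. These counts include newly called members, and of the 9 called with all arrays 1, 2 and 4 or 5 stayed called. In the blocked fit an array without its partner adds nothing to the difference, so leaving out 1 array gives the same estimate as leaving out its pair. At an unadjusted p under 0.05 the paired fit held 35 of the 122 and 28.9% of all genes above background.

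The clearest increases, called and without overlap between the groups, were in the pseudogenes RNA5SP288, RNA5SP296 and RNA5SP408. RNA5SP288 read 7.17, 7.03 and 7.14 in the mock cultures and 7.81, 7.67 and 7.69 in the irradiated ones. It rose by 0.61 (SE 0.068, 1.53-fold, adjusted p = 0.0176), and was called again when each replicate number was left out, with differences from 0.59 to 0.64. RNA5SP296 read 6.35, 6.38 and 6.53 in the mock cultures and 6.94, 7.12 and 7.07 in the irradiated ones. It rose by 0.63 (SE 0.072, 1.54-fold, adjusted p = 0.0176). RNA5SP408 read 6.53, 6.36 and 6.63 against 7.05, 7.06 and 7.07, and rose by 0.56 (SE 0.077, 1.47-fold, adjusted p = 0.0262). In these 3 pseudogenes every irradiated array lay above every mock array, and the replicate number took only 3.38% to 3.86% of the variation. RNA5SP296 and RNA5SP408 each kept their call in 2 of the 3 fits that left out a replicate number, the highest adjusted p being 0.0502 and 0.0734. The brightest background set read 6.88 on mock replicate 1 and 7.25 on irradiated replicate 2, above RNA5SP296 and RNA5SP408 on those arrays. On the other arrays it read 5.86 or less.

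The other called increases were those in which the groups overlapped, and by adjusted p in the paired limma fit RNA5SP69 came before RNA5SP408. RNA5SP69 read 6.49, 6.78 and 6.97 in the mock cultures and 6.95, 7.33 and 7.67 in the irradiated ones, and rose by 0.57 (SE 0.075, adjusted p = 0.0245). RNA5SP142 rose by 0.47 (adjusted p = 0.0343), RNA5SP437 by 0.45 (adjusted p = 0.0446), RNA5SP42 by 0.44 (adjusted p = 0.0498) and RNA5SP166 by 0.36 (adjusted p = 0.0434). In these 5 the groups overlapped although the irradiated culture was the higher one for every replicate number. RNA5SP142 and RNA5SP437 lay below the signal limit on some mock arrays, at 5.57 and 5.77 for RNA5SP142 and 5.85 and 5.83 for RNA5SP437. RNA5SP142, RNA5SP166 and RNA5SP42 were called in none of the 3 fits that left out a replicate number, and RNA5SP69 and RNA5SP437 in 1 each.

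RNA5SP506 was the member that fell. It read 7.82, 8.68 and 9.22 in the mock cultures and 7.54, 8.12 and 8.61 in the irradiated ones, so that the groups overlapped while each irradiated culture lay below its mock partner. It fell by 0.48 (SE 0.088, 0.716-fold of mock, adjusted p = 0.0370). The call was lost under each of the 3 other scalings, and was kept in 1 of the 3 fits that left out a replicate number.

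**Figure D3:**
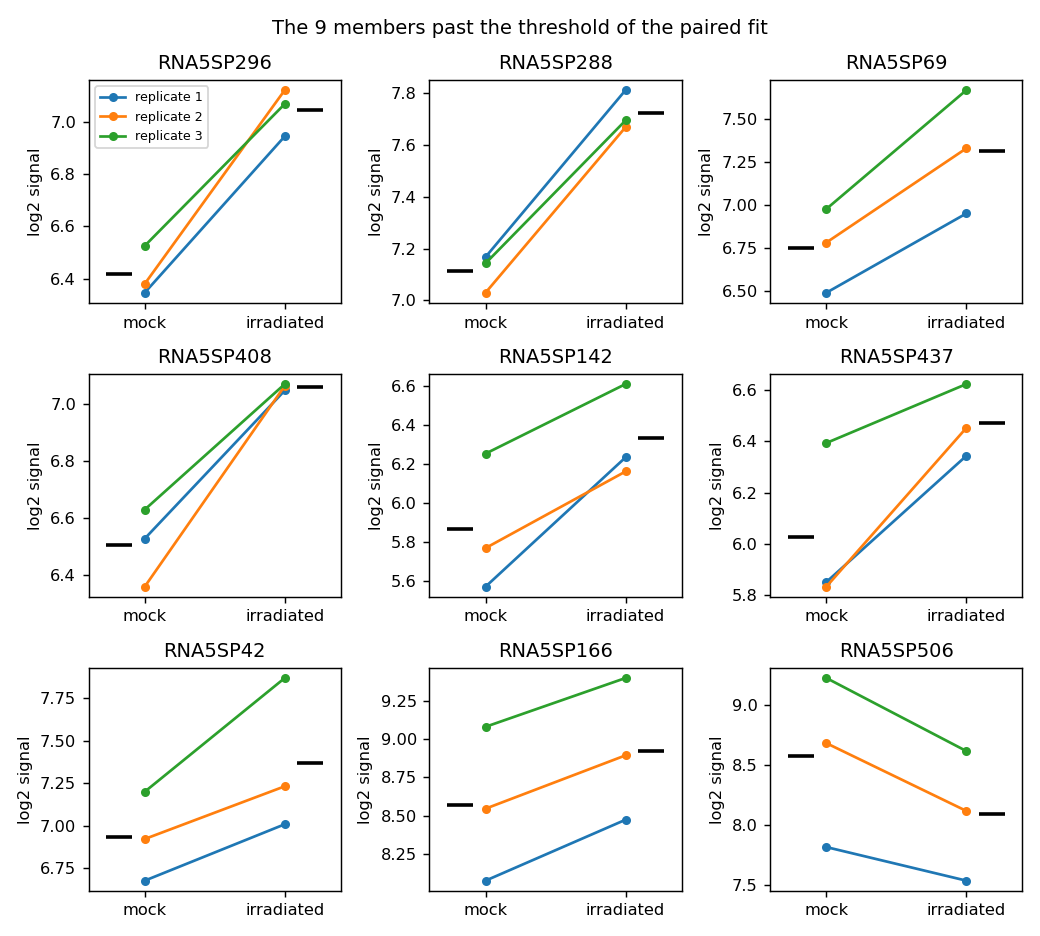
Log2 signal (y axes, each with its own range) of the 9 members past the threshold of the paired limma fit in mock and irradiated cultures, with lines joining cultures of one replicate number and black bars at group means. In RNA5SP288, RNA5SP296 and RNA5SP408 every irradiated value lies above every mock value, and RNA5SP506 is the one member in which every line falls.

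Larger differences that did not pass the threshold were found among both bright and dim members. RNA5SP247 had the largest increase, from 6.14, 6.13 and 6.32 in the mock cultures to 6.39, 6.69 and 7.57 in the irradiated ones, a difference of 0.68 (SE 0.18, adjusted p = 0.0707). RNA5SP139, next to the signal limit, differed by 0.51 (adjusted p = 0.0755). After RNA5SP243, the largest decrease was in RNA5SP348, from 6.33, 7.59 and 8.12 to 4.89, 6.50 and 8.23, a difference of -0.81 (SE 0.27, adjusted p = 0.114). Irradiated replicate 1 of RNA5SP348 was the lowest array and irradiated replicate 3 the highest. RNA5SP263 and RNA5SP352 differed by -0.49 and -0.43, with adjusted p of 0.0528 and 0.0729.

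In all, 34 members were higher in the irradiated culture for every replicate number, or 27.9%, against 9.95% of all genes above background. For 11, or 9.02%, it was lower for every number, against 42.0%. The share higher for every number was 12.2% of the 41 brightest members, 34.1% of the next 41 and 37.5% of the 40 dimmest. In other genes of the same signal ranges it was 9.70%, 8.06% and 12.7%. Among other genes at or below the signal limit it was 36.6%, so a high share is not particular to 5S members. Among other short RNAs above background, 38.0% of microRNA genes and 26.7% of Y RNA genes and pseudogenes were higher for every number. This share was 14.9% for U6 genes, 6.98% for small nucleolar and Cajal body RNA genes and 0 for 7SK and 7SL. The groups did not overlap for 8 members, all higher after irradiation, against 1.55% of all genes above background in that direction, and for 0 members in the other direction, against 7.7%. These 8 were RNA5SP413, RNA5SP288, RNA5SP407, RNA5SP408, RNA5SP296, RNA5SP247, RNA5SP30 and RNA5SP139. The correlation with the 5S gene clusters was below 0.5 in all 8. This follows in part from how the 8 were picked, since the 5S gene clusters were lowest on irradiated replicate 1. Upward non-overlap was found for 22.3% of microRNA genes and 20% of Y RNA genes and pseudogenes. It was found for 1.55% of small nucleolar and Cajal body RNA genes, and for 0 of the U6 genes and 0 of the 7SK and 7SL genes. Other genes in the signal range of the 40 dimmest members had it in 3.99%, and other genes at or below the signal limit in 16.2%. Of the 122, 9 had an irradiated mean above the signal limit and a mock mean below it, among them RNA5SP139 and the called RNA5SP142, so that the limit favoured an increase in these, and 1 had the reverse. Over the 112 with both means above it, a restriction chosen after seeing the data, 29 were higher for every replicate number. Of these 112, 7 did not overlap upward, 7 were called higher and 1 lower. Of all 9144 genes above background with both means above it, 9.65% were higher for every number and 1.37% did not overlap upward. Among these 9144 genes, 1.27% were called higher, and 341 genes were called lower.

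The median difference over the 122 was 0.075 on the log2 scale, with 74 higher and 48 lower, beside -0.091 over the other genes above background, of which 27.7% were higher. The members' median depended on single cultures and on the scaling. Leaving out mock replicate 1 made it -0.13 and leaving out irradiated replicate 3 made it -0.14. Leaving out mock replicate 3 or irradiated replicate 1 made it 0.27 or 0.29. Each of these left a culture without its partner, so the difference between replicate numbers enters these values. With replicate 1, 2 or 3 left out of both groups the median was 0.091, 0.111 and 0.040. Then 80, 79 and 68 members were higher and 42, 43 and 54 lower. After centring each array it was 0.18 with 95 higher and 27 lower, after quantile normalization 0.129 with 87 and 35, and after cyclic loess 0.127 with 91 and 31. With a signal limit 1 log2 unit higher it was -0.0071, with 29 higher and 34 lower. By replicate number it was 0.066, 0.012 and 0.171 for numbers 1, 2 and 3, and in the other genes above background it was -0.118, -0.080 and -0.065. RNA5S genes at or below the signal limit had a median difference of 0.072, and other genes there 0.066.

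The difference also varied with brightness. For the 41 brightest members the median was -0.280, -0.089 and 0.258 for replicate numbers 1, 2 and 3. For the next 41 it was 0.140, 0.065 and 0.237, and for the 40 dimmest 0.224, 0.063 and 0.105. The direction was thus opposite in replicates 1 and 3 among the brightest, and upward for every number in the others. Other genes with means in the range of the brightest members had medians of -0.124, -0.092 and -0.070. For other genes in the range of the next 41 the medians were -0.125, -0.070 and -0.072. In the range of the 40 dimmest they were -0.082, -0.053 and -0.048.

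**Figure D4:**
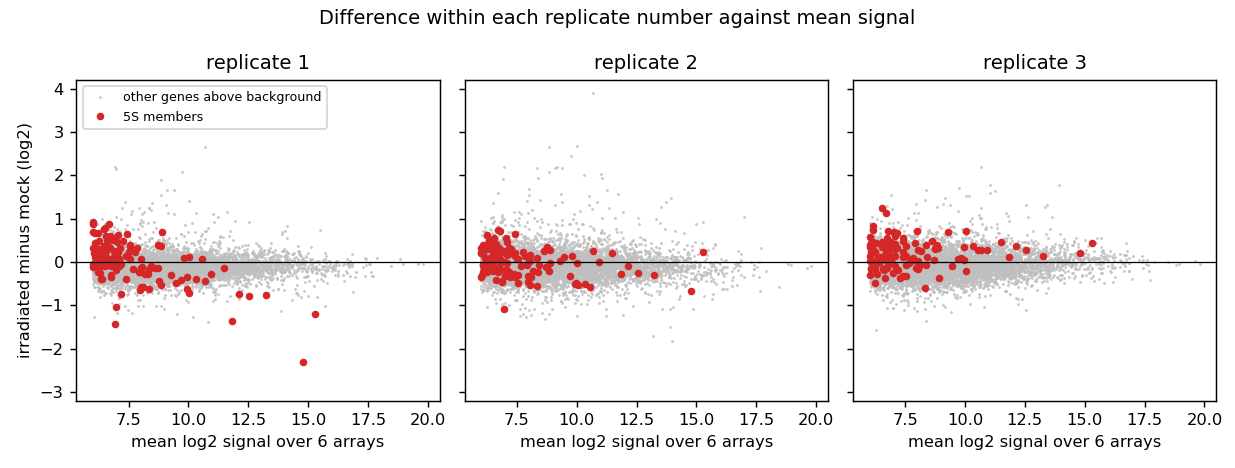
Irradiated minus mock log2 difference (y axis) against mean log2 signal over the 6 arrays (x axis) for replicate numbers 1, 2 and 3, with the 122 5S members in red and the other genes above background in grey. The 41 brightest members have a median of -0.280 in replicate 1 and 0.258 in replicate 3.

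The grouping by likeness to the 5S gene clusters showed the same split. The 44 members with a correlation above 0.9 had a median difference of -0.111, with 8 of 44 higher, and 0 of them were called in either direction, 7 of 44 having an unadjusted p under 0.05 in the paired limma fit, against 28.9% of all genes above background. The 49 with a correlation from 0.5 to 0.9 had a median of 0.130, with 3 called higher and 1 lower. The 29 below 0.5 had a median of 0.233, with 27 of 29 higher and 5 called higher. These 5 were RNA5SP288, RNA5SP296, RNA5SP408, RNA5SP142 and RNA5SP437. The likeness was measured on the same 6 arrays as the difference, so these counts are a description.

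RNA5SP141, whose transcript was reported as a RIG-I ligand, read 6.49, 7.43 and 7.70 in the mock cultures and 6.96, 7.73 and 7.33 in the irradiated ones. The irradiated culture was higher for replicate numbers 1 and 2 and lower for 3. The difference was 0.14 (SE 0.16, adjusted p = 0.587). RIGI, the gene of that sensor, rose by 1.38 in the same fit, or 2.61-fold (adjusted p = 0.0253).

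Most members lie within other genes. According to RefSeq's GRCh38.p14 annotation, 85 of the 122 lie inside another gene and 37 outside, and for 66 a surrounding gene was measured with a single symbol, in 33 cases above background. The members' correlation with the surrounding gene over the 6 arrays had a median of -0.062, beside 0.833 with the 5S gene clusters, and 40 of the 66 had a higher log2 signal than the surrounding gene, though levels of different probes are not comparable. For the 33 with a surrounding gene above background these medians were -0.464 and 0.890. RNA5SP429, in the E-cadherin gene CDH1, had a correlation of -0.25 with CDH1 and 0.98 with the 5S gene clusters. RNA5SP263, in the neuregulin gene NRG1, had one of -0.61 with NRG1 and 0.97 with the 5S gene clusters.

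For 14 of the 66 the correlation with the surrounding gene was the higher one. RNA5SP296, in the endoglin gene ENG, correlated with ENG at 0.97 and with the 5S gene clusters at 0.05, but ENG itself lay below background, with a mean of 4.71. RNA5SP288, in AOPEP and the Fanconi anaemia gene FANCC, correlated with FANCC at -0.51, and FANCC differed by -0.13. RNA5SP437, in the Polycomb gene SUZ12, correlated with SUZ12 at -0.46. RNA5SP408 lies outside any other gene in that table.

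Genes for making, assembling and removing 5S rRNA showed small differences, and none passed the threshold in the paired limma fit. The counts at an unadjusted p under 0.05 given for them stand beside 28.9% of all genes above background. Of the RNA polymerase III subunits 16 of 17 measured lay above background, 0 were called, 3 had an unadjusted p under 0.05, and the median difference of the 16 was -0.03. The lowest p were those of POLR3GL, a subunit isoform (-0.36, adjusted p = 0.051), and POLR1D, shared with RNA polymerase I (-0.25, adjusted p = 0.077). Of the RNA polymerase III transcription factors and regulators 14 of 17 lay above background, 0 were called and 3 had an unadjusted p under 0.05. That list also holds BRF2 and the SNAPC genes, which serve upstream promoters such as those of U6 and not the internal 5S promoter, and SNAPC3 was 1 of the 3. Among the list GTF3C5 and GTF3C3, subunits of TFIIIC, had the lowest p (-0.26 and -0.21, adjusted p = 0.078 and 0.116).

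Of the 5S particle and its assembly factors, 7 of 10 listed genes were measured, 7 were above background, 0 were called and 1 had an unadjusted p under 0.05. Their median difference was 0.09, and all 7 were higher, 4 of them for every replicate number. The 7 include MDM2, which the particle can bind (a difference of 0.023), and do not include RPL5. BRIX1 and RRS1, which help place the 5S particle in the growing large subunit, differed by 0.23 and 0.19 (adjusted p = 0.133 and 0.210). Of small RNA processing and decay genes 14 of 15 lay above background, 0 were called and 1 had an unadjusted p under 0.05, with LARP4, a poly(A)-binding La-related protein, and TUT7, a terminal uridylyltransferase, lowest in p (0.19 and -0.14, adjusted p = 0.146 and 0.232).

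Other short RNAs were compared on the same terms. Of 47 genes and pseudogenes of the U6 spliceosomal RNA, also an RNA polymerase III product, 45 were called higher in replicate 3. Both replicate 3 arrays lay above both replicate 1 arrays for 46 of the 47. Over all genes above background these shares were 19.2% and 30.1%. The median difference of the U6 group after irradiation was 0.16, with 43 of 47 higher and 0 called. An unadjusted p under 0.05 was reached by 7 of 47, against 28.9% of all genes above background. Of 9 genes and pseudogenes of 7SK and 7SL, also made by RNA polymerase III, 2 were called higher in replicate 3, and their median irradiation difference was -0.06. Of 129 small nucleolar and Cajal body RNA genes, made mostly by RNA polymerase II, 94 were called higher in replicate 3, and the median irradiation difference was -0.13 with 2 called higher and 7 lower. Of 166 microRNA genes, 14 were called higher in replicate 3 and 38 lower, and 20 were called higher after irradiation and 2 lower. Of 15 Y RNA genes and pseudogenes, 9 were called higher in replicate 3, and the median irradiation difference was 0.14 with 1 called higher. Of 47 U1, U2, U4, U5, U7, U11 and U12 genes and pseudogenes, 28 were called higher in replicate 3 and 10 lower. Their median irradiation difference was 0.03, with 1 called higher and 1 lower. Over all genes above background 22.3% were called lower in replicate 3, and 1.32% were called higher and 3.75% lower after irradiation.

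The median correlation with the 5S gene clusters was 0.70 for the U6 group, 0.24 for 7SK and 7SL, 0.74 for the small nucleolar group and -0.14 for the microRNA genes, beside 0.795 for the 5S members. For the Y RNA genes it was 0.61, and for the U1, U2, U4, U5, U7, U11 and U12 genes 0.69. Differences between the classes were not tested. RNA was isolated on RNeasy columns per the labels, a method that recovers short RNAs incompletely, and its part in these values was not tested.

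**Figure D5:**
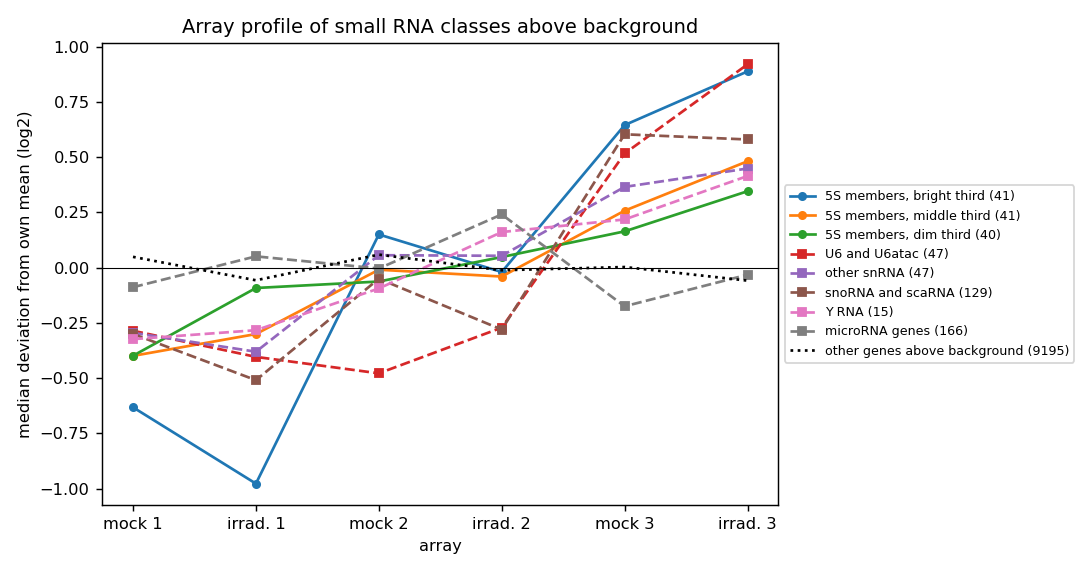
Median deviation from each gene's own mean (log2, y axis) on the 6 arrays (x axis) for the 5S members in 3 groups by brightness and for other classes of short RNA above background, with gene numbers in the legend. The 41 brightest 5S members run from -0.98 on irradiated replicate 1 to 0.89 on irradiated replicate 3, and the 47 U6 genes reach 0.92 there.

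The genes whose profile over the 6 arrays was most like the members' median profile were PFDN4, TDG, PLA2G4A, EIF3M and TMEM9, with Pearson correlations of 0.993, 0.992, 0.991, 0.989 and 0.988. They were the 5 highest among the other genes above background. Of the 5 measured keratinocyte markers, 4 were called higher in replicate 3 and 0 lower. In all 5 both replicate 3 arrays lay above both replicate 1 arrays. Their median correlation with the 5S gene clusters was 0.808, so the profile was not confined to short RNAs, and its cause was not tested.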

How the data were processed

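The authors deposited gene-level log2 signals of 6 arrays, 1 per culture, made with RMA (background correction, quantile normalization and summary of probes) per the submitters' processing notes, and a fold change is that of these signals. The headers of the exon-level table name SST-RMA, and whether the gene-level values also came from it is not settled. Per the labels' protocols the kit for amplification and labelling was Ambion WT Express. For software versions and the genome build, the sources used here give nothing. The exon-level table was not used here, since its features are not paired with genes.

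Of 67528 clusters, 23781 had 1 symbol in the platform annotation, 1543 several and 42204 none, and only the first kind were named. Symbols were updated through RefSeq's GRCh38.p14 gene table, which also gave chromosomes and surrounding genes. The cluster with the highest mean stood for a symbol, and clusters with identical values counted once (0 members removed).

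The tests used limma 3.58.1 (R 4.3.3; lmFit and eBayes with a variance trend, two-sided, Benjamini-Hochberg, threshold 0.05), over all clusters without a block and over 9317 genes above background with the replicate number as a block. The numbers come from the sample titles. Cultures of one number were treated as pairs: correlations of their deviations from the group mean were 0.523, 0.644 and 0.705, against -0.555 to 0.0721 for cultures of different numbers. Deviations from a group mean cancel out within the group, so positive same-number values bring negative ones elsewhere on balance. The contrast is therefore only a description. Shares of variation are sums of squares over the 6 arrays, not corrected for degrees of freedom. The fits over genes above background were also run on simulated data with independent noise. This did not test the choice of members or of the fit.

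Members and lists were chosen with earlier results of these data known, as was the paired fit above the signal limit. Named members were those past the threshold, the 6 brightest, the 6 largest increases and decreases, RNA5SP141 and those next to the limit. RNA5SP413, RNA5SP407, RNA5SP30, RNA5SP429 and the surrounding genes were named after their values were seen. List genes were named where past the threshold (at most 4 a list), or else the 2 of smallest p, as were the 5 genes most like the members. Alternatives were the block, 3 scalings, the variance trend, the signal limit, the choice of clusters and leaving out each culture or replicate number.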

Additional observations from a re-analysis of the deposited data

How the results depend on the processing

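Over all clusters, 0 were called under every alternative run (the replicate block, 3 scalings, no variance trend, leaving out each culture or number). Over genes above background 472 were called, 0 with no replicate block, 0 with no signal limit, 270 after centring each array on its median, 203 after quantile normalization and 179 after cyclic loess, and 85 to 251 with a culture or number left out (140 without replicate 3 of both groups). Increases were 123 of the 472, and 181 of 270, 119 of 203 and 116 of 179 after the scalings, which moved the median difference of genes above background from -0.090 to 0.010, -0.015 and -0.009. Of 122 members 9 were called, 0 with no replicate block, 0 with no signal limit, 2 to 7 with a culture or number left out, and 6 to 10 otherwise. Of the 9, 8, 7 and 6 were still called after centring, quantile normalization and cyclic loess, and 1 to 5 with a culture or number left out. The members' median difference of 0.075 became 0.18 after centring and -0.0071 with the limit 1 log2 unit higher. It ran from -0.14 to 0.29 with a culture left out, and from 0.040 to 0.111 with a replicate number left out of both groups. Under quantile normalization and cyclic loess it was 0.129 and 0.127. The number of arrays limits these values, and the dimmest members lay next to the signal of background probes. The cause of these shifts was not tested, beyond the fewer cultures in some fits.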
